A study of Mus musculus with 4 samples.

Results

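Expression of 40 genes of the cell division cycle was examined in whole spleens of 5-day-old mice whose mothers had received carbon black nanoparticles (CB-NP), ultrafine particles of nearly pure carbon, in early pregnancy. The genes form a fixed list of DNA replication factors, cyclins and their kinases, and mitotic proteins, and were picked by symbol through the RefSeq accessions on the array. All 40 had a probe among 20284 matched genes, and 38 were well above background on all 4 arrays. Dams were of the outbred ICR stock. Exposed dams were given CB-NP into the nose on gestational days 5 and 9, at 95 microg/kg on each occasion, and control dams were given distilled water at 1 mL/kg. Spleen RNA of the offspring was pooled within each sex and treatment, which gave 1 pool each of unexposed males, exposed males, unexposed females and exposed females, every one read on 1 single-colour (Cy3) array. Where 4 values are given in a row they follow that order of pools. The number of animals in a pool was not given in the sources used here. Without a second pool in any group, no difference within a sex can be set against a replicate spread.

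Before a cell divides, the MCM helicase is loaded onto replication origins and later unwinds DNA, primase lays down the RNA primers from which polymerases start, and ribonucleotide reductase and thymidylate synthase supply building blocks. Cyclin-dependent kinases time these steps, and the cyclin B kinase, the Aurora and Polo kinases and the spindle checkpoint then carry the cell through mitosis. Most of these transcripts are made only in dividing cells, so in a whole organ their level partly follows how many cells are cycling. The spleen of a newborn mouse is a site of blood formation, with many dividing erythroid and myeloid precursors. In bulk RNA, fewer dividing cells and less of a transcript per dividing cell cannot be told apart.

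Cell cycle transcripts were slightly lower in the CB-NP pool than in the control pool of the same sex, in both sexes. The median log2 difference over the 38 measured members was -0.20 in males (1.14-fold lower) and -0.25 in females (1.19-fold lower), beside medians of -0.02 and -0.04 over all genes, which leaves -0.17 and -0.20 relative to the array as a whole. Quantile normalization brought the member medians to -0.13 and -0.15, and the authors' own scaling brought them to -0.14 and -0.16. Relative to all genes these were -0.13 and -0.13 with quantile normalization and -0.17 and -0.21 with the authors' scaling. Below 0 lay 35 of 38 members in males, against 54.8% of all genes, and 36 of 38 in females, against 56.7%. In 31 of 38 members both CB-NP pools lay below both control pools, which held for 32.7% of the 13933 genes measured on every array. No member was higher in both CB-NP pools than in both control pools, as 3040 of the 13933 genes were. Between the male and female controls the members had a median difference of 0.04. The members are bright on the array, and bright genes were lower in the CB-NP pools more often. Among the 3620 genes between the lower and upper quartiles of the members' signal, 50% had both CB-NP pools below both controls. In 563 of these genes both CB-NP pools lay above both controls. The medians were -0.06 in males and -0.11 in females.

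The differences of single members were of the order of the scanner's stated error of a difference. Over 290 probes with 5 or more spots, the median SD of log2 signal within an array was 0.06 to 0.07. That SD is of single spots on 1 array, while the scanner error that follows is of a difference between 2 arrays. Their sizes are therefore not on a like basis. The scanner's propagated error of a log2 difference was 0.20 for nearly every member, and 16 of 38 members were lower by more than that error in the male pair, as were 24 of 38 in the female pair. Beyond it in the other direction lay no member in males and only Cdk2 in females. Between the 2 control pools 4 members lay beyond it. The share of all genes beyond this error was not counted, so these counts have no exact background. Near the error, the male difference of Mcm7 (-0.21) ranked 2247th lowest of 14186 genes (15.8%). The female difference of Ccnb1 (-0.20) ranked 3633rd lowest of 14075 genes (25.8%). Prim2 was the only member at least 2-fold different within a sex, in both sexes, against 0.86% of genes in males and 1.09% in females. In the plot of member differences the points of both sexes sit mostly left of the all-gene medians.

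**Figure D1:**
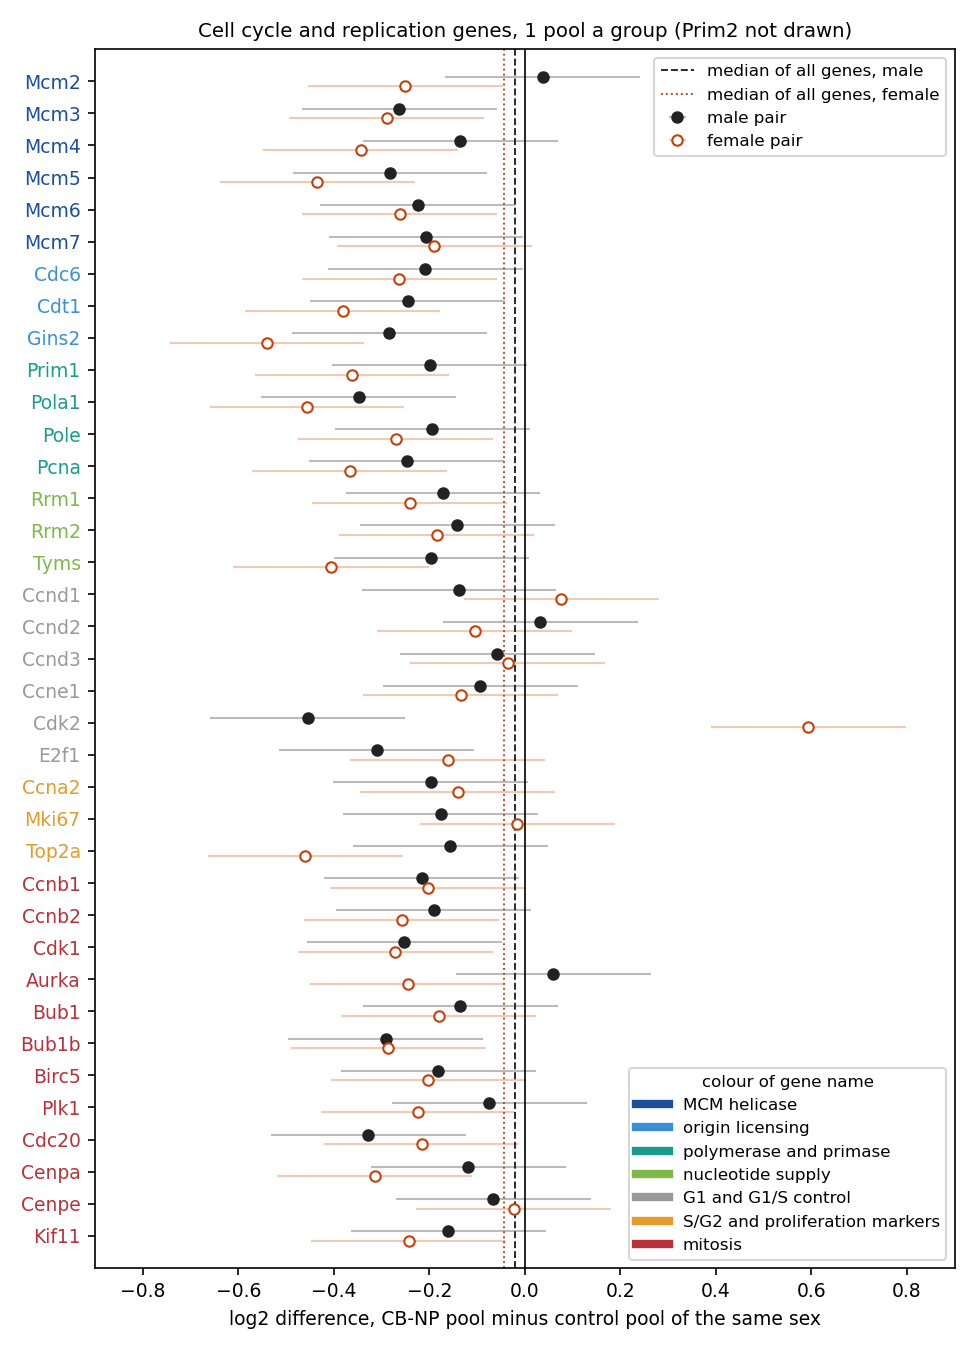
Log2 difference of each measured member, CB-NP pool minus control pool, for the male pair (filled) and the female pair (open), with the scanner error as bars and the medians of all genes as vertical lines. Of the 37 members drawn, 34 lie below 0 in males and 35 in females. Prim2 (-5.01 and -1.84) lies outside the axis.

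A limma model over the 4 pools, with treatment and sex as terms and 1 residual degree of freedom, tested the treatment difference shared by the sexes. No member passed a Benjamini-Hochberg adjusted p of 0.05, where 0.0827% of 14502 genes did. At an unadjusted p under 0.05 limma had 9 of 38 members lower and 0 higher, beside 5.96% of all genes lower. The smallest adjusted p among the members was 0.326, for Pola1 (log2 difference -0.40, standard error 0.09, lower in 2 of 2 pairs). The count of calls depended on the setting, since limma called 3 members with an intensity trend (Mcm5, Pola1 and Prim2, with 2.63% of all genes) and 3 with normexp background correction (Gins2, Pola1 and Prim2, with 4.22%). With median centring it called Prim2 alone, with 2.39% of all genes.

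Replication genes and mitotic genes are switched on by different promoter elements. E2F sites, bound by the E2F and DP factors, serve mainly genes of the G1/S transition, whereas the cell cycle genes homology region (CHR), often beside CCAAT boxes bound by NF-Y, serves mainly genes of G2 and mitosis. Promoter windows of 300 bases, from 250 before to 50 after the transcript start, were available from RefSeq (GRCm38.p6) for 31 members in 33 windows. They were searched on both strands for E2F (TTTCCCGC, TTTGGCGC, TTTCGCGC or TTTGCCGC), CHR (TTTGAA) and CCAAT. An E2F match lay in 5 of 10 windows of the replication class (Mcm, Pol, Prim and Rrm genes) and 1 of 12 of the mitotic class, against 2.26% of 32851 windows of all genes. A CHR match lay in 1 of 10 replication windows and 8 of 12 mitotic windows, against 17.9% of all windows. CCAAT lay in 10 of 10 and 11 of 12, against 37.4%. A match describes the letters in the window and shows no binding. The windows of Mcm5 and Mcm6 are printed for the replication class and those of Ccnb2 and Cdc20 for the mitotic class, 5′ to 3′ on the gene's strand with matches in capitals. They were chosen after the matches were counted.
Mcm5 (chr8:75109259-75109558, plus strand, GRCm38.p6): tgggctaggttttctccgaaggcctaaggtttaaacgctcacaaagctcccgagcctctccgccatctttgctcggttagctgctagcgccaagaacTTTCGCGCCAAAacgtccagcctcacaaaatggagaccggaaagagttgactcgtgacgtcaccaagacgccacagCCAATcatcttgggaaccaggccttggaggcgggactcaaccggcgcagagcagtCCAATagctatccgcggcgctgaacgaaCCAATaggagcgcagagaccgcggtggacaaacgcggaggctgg
Mcm6 (chr1:128359656-128359955, minus strand, GRCm38.p6): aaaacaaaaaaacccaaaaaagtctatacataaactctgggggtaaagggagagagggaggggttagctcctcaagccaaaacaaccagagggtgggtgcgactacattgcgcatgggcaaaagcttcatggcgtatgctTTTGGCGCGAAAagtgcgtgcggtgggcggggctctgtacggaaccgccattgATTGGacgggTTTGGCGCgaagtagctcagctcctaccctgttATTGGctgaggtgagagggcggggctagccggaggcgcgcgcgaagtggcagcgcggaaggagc
Ccnb2 (chr9:70421505-70421804, minus strand, GRCm38.p6): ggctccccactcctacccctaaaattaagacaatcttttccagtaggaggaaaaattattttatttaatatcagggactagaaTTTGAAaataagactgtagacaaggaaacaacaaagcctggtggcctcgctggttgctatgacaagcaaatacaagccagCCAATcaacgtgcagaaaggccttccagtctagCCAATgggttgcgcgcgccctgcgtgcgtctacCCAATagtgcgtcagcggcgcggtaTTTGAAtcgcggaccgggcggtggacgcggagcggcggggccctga
Cdc20 (chr4:118437294-118437593, minus strand, GRCm38.p6): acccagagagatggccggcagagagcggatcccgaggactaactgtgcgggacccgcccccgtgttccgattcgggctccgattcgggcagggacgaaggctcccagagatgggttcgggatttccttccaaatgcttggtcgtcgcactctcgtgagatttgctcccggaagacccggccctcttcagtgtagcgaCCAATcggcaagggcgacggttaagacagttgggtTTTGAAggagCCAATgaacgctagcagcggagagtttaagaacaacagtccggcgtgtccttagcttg
In Mcm5 a TTTCGCGC match begins 153 bases before the start and shares 4 bases with a reverse-strand match of TTTGGCGC. Mcm6 holds such a pair 110 bases before the start and a further TTTGGCGC at 47. Ccnb2 has 3 CCAAT matches, at 87, 54 and 21 bases before the start, and 2 CHR matches, beginning 167 bases before the start and 5 bases after it. Cdc20 has its CHR match 18 bases before the start.

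The replication and the mitotic class had similar medians. The 12 replication genes had a median log2 difference of -0.20 in males and -0.28 in females, and the 12 measured mitotic genes had -0.17 and -0.23. The replication median was thus lower than the mitotic median by 0.03 in males (-0.03) and by 0.05 in females (-0.05). No test of this gap was available with 1 pool a group. Both CB-NP pools lay below both controls in 11 of 12 replication genes and 10 of 12 mitotic genes. That held for 32.7% of genes measured on every array and for 50% of those between the quartiles of the members' signal. Between the control pools the medians of the classes were 0.04 each. With wider classes (Cdc6, Cdt1, Gins2, Pcna and Tyms added to replication, and Ccna2, Mki67 and Top2a to mitosis) the gap was -0.03 in males and -0.12 in females. Between class means the gap was -0.43 in males and -0.20 in females, but -0.03 and -0.08 once Prim2 was left out, a choice made after its value was seen. The plot of the 2 classes by pool shows the same step in both.

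**Figure D2:**
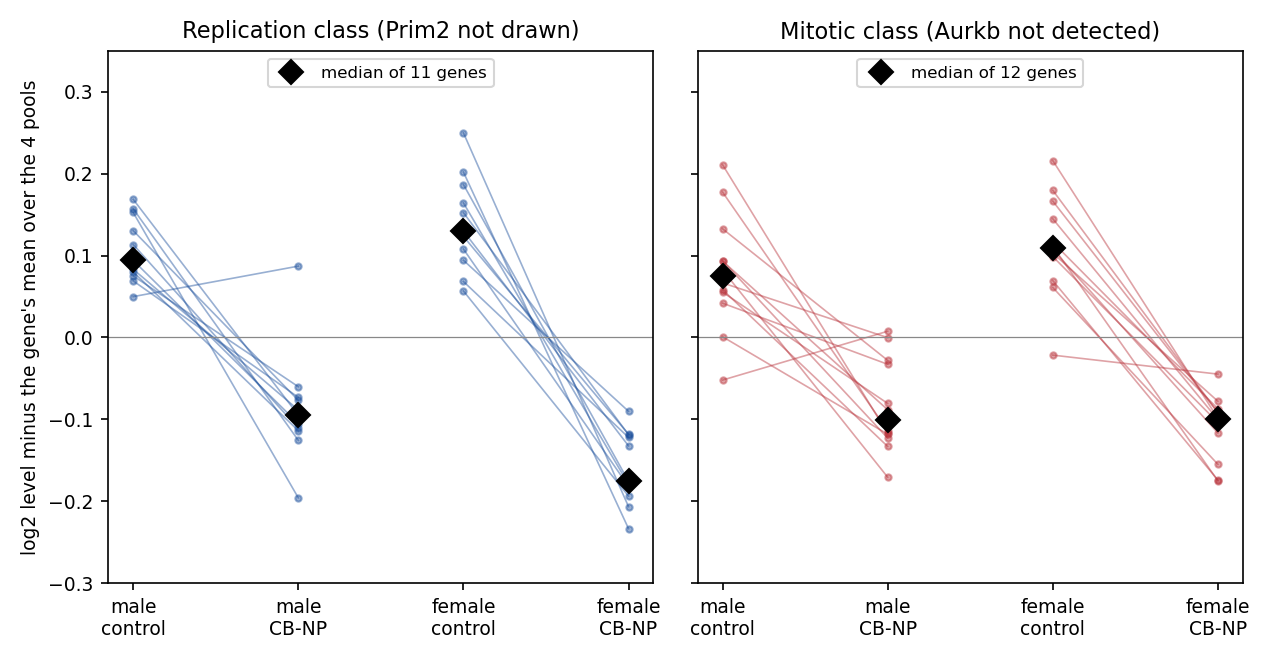
Log2 level of each gene minus its own mean over the 4 pools, for 11 replication genes (left, Prim2 not drawn) and 12 mitotic genes (right, Aurkb not detected), with lines joining the pools of a sex and black diamonds for the class medians. Both class medians lie above 0 in the 2 control pools and below 0 in the 2 CB-NP pools.

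Subunits of the MCM ring, the helicase that unwinds DNA at the fork, were lower after exposure in 6 of 6 cases in females and in 5 of 6 in males. Of all genes, 56.7% lay below 0 in females and 54.8% in males. All levels here are log2 processed signal with the 75th percentile of the array set to 0. Mcm5 stood at 5.66 and 5.37 in unexposed and exposed males and at 5.70 and 5.27 in unexposed and exposed females. It was lower by 0.28 in males (-0.28) and by 0.44 in females (-0.44), so both exposed pools lay under both controls. Mcm3 was at 5.20, 4.93, 5.14 and 4.85 in the 4 pools, with differences of -0.26 and -0.29. Mcm6 read 7.72, 7.50, 7.74 and 7.48, again with the CB-NP pools lowest (-0.22 and -0.26). Mcm4 (-0.14 and -0.34) and Mcm7 (-0.21 and -0.19) had the same direction. Mcm2 was the exception, at 4.17 and 4.21 in males (0.04) and at 4.18 and 3.93 in females (-0.25).

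The factors that load and start the helicase were lower too. Gins2 is a subunit of the GINS complex that completes the active helicase. By the brightest probe of each gene it had the lowest female difference after Prim2. Gins2 had levels of 2.27, 1.99, 2.57 and 2.02 and differences of -0.28 and -0.54. Its female control was also the highest of the 4 pools, 0.29 above the male control. Cdt1, which brings the MCM ring to origins, was at 6.18, 5.93, 6.21 and 5.83 (-0.25 and -0.38). Cdc6, its partner in loading, differed by -0.21 and -0.26, and its second probe by -0.08 and -0.20. All 3 genes had both CB-NP pools below both controls, as did 32.7% of genes measured on every array.

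Among the polymerase and primase genes Prim2 stood apart from every other member. Prim2 encodes the large subunit of DNA primase, which works as a dimer with the catalytic subunit Prim1 and is bound to DNA polymerase alpha. Its single probe read 1060, 33.3, 1390 and 315 intensity units in unexposed males, exposed males, unexposed females and exposed females, or 1.66, -3.35, 1.83 and -0.01 on the centred log2 scale. The control pools were close to each other (0.16), and both CB-NP pools were far below them, the male pool the lowest. The differences were -5.01 in males (32.3-fold lower, scanner error 0.22) and -1.84 in females (3.57-fold lower). At least 2-fold lower were 0.508% of 14186 genes in males and 0.433% of 14075 genes in females. Prim2 ranked as the 4th lowest gene in the male pair and the 20th lowest in the female pair. With normexp background correction the male difference was -3.80. In limma its shared difference was -3.42 with an adjusted p of 0.337, and over the alternatives this p ran from 8.09e-101 to 0.705. The 2 lowest of these came from the normexp and median centring fits, in which limma gave every gene the same spread.

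Prim1 and Pola1, the partners of Prim2 in the primase complex, did not differ to that extent. Prim1 read 5.08, 4.88, 5.17 and 4.81 (-0.20 and -0.36). Pola1, the catalytic subunit of polymerase alpha, read 3.09, 2.75, 3.19 and 2.73 (-0.35 and -0.46). Of the 4 genes on either side of Prim2 on chromosome 1, looked up after its value was seen, 5 were measured on every array. They differed by -0.28 (Bag2) to 0.32 (Zfp451) in males and by -0.45 (Bag2) to 0.13 (Gm9839) in females, so none came near Prim2. Pole, the catalytic subunit of leading-strand polymerase epsilon, differed by -0.19 and -0.27. Pcna, the sliding clamp, differed by -0.25 and -0.37. The plot of primase, polymerase alpha and Cdk2 levels sets these on axes of equal span.

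**Figure D3:**
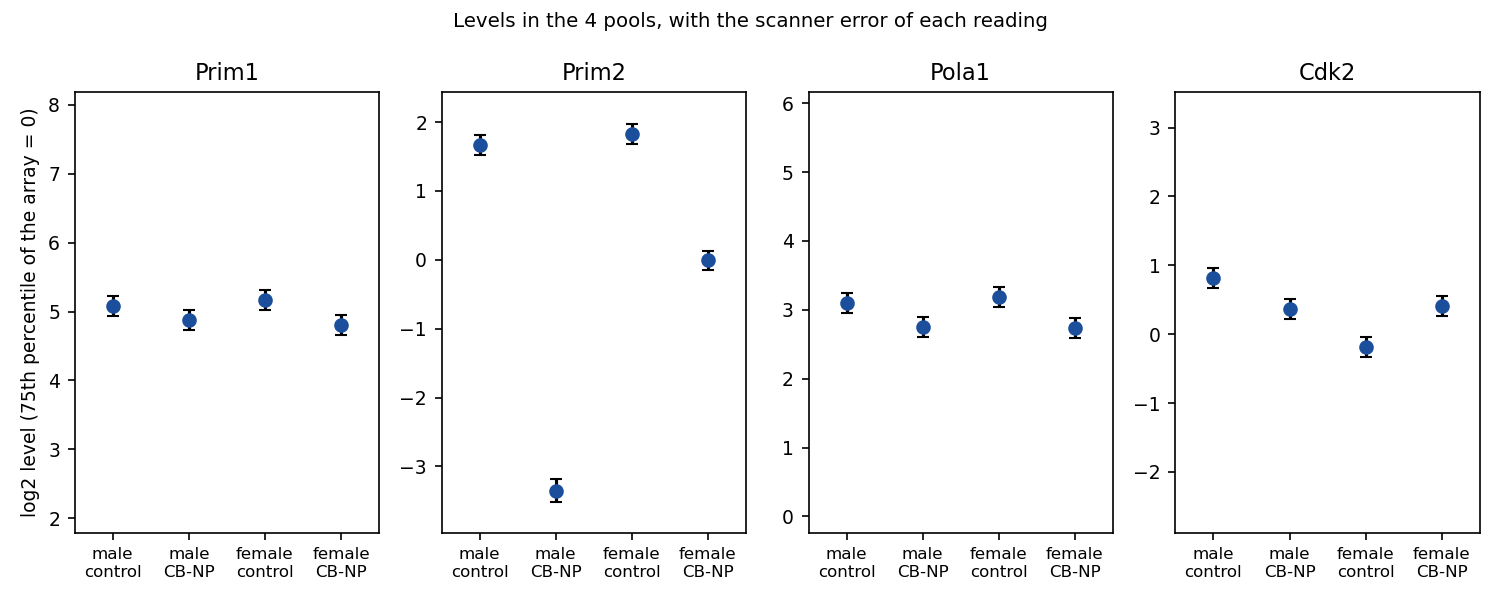
Centred log2 level of Prim1, Prim2, Pola1 and Cdk2 in the 4 pools, with the scanner error of each reading as bars and the same span on each axis. Prim2 reads 1.66 and -3.35 in males and 1.83 and -0.01 in females, while the pools of a sex lie less than 0.5 apart for Prim1 and Pola1 and Cdk2 is lowest in the female control (-0.18).

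Enzymes of nucleotide supply were lower by small amounts as well. Rrm1 and Rrm2, the subunits of ribonucleotide reductase, differed by -0.17 and -0.14 in males and by -0.24 and -0.18 in females. Tyms, thymidylate synthase, read -0.35, -0.55, -0.20 and -0.61 (-0.20 and -0.41). The 3 genes had both CB-NP pools below both controls, as did 32.7% of genes measured on every array.

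Of 6 measured genes that govern entry into S phase, 5 lay below 0 in males and 4 in females, with medians of -0.12 and -0.07. Of all genes, 54.8% and 56.7% lay below 0. In 2 of the 6, Ccne1 and E2f1, both CB-NP pools were below both controls. That is near the share of all genes measured on every array (32.7%) and under that of genes between the quartiles of the members' signal (50%). The D-type cyclins, which sense growth signals in G1, lay within the scanner error in both sexes. Ccnd1 was -0.14 and 0.08, Ccnd2 0.03 and -0.11, and Ccnd3 -0.06 and -0.04, with -0.30 in females by the second Ccnd3 probe. The sign of Ccnd3 in both sexes changed with quantile normalization and the authors' scaling, and that of Ccnd1 in females with median centring. Ccne1, cyclin E, was -0.09 and -0.13, with -0.19 and -0.34 by its second probe. E2f1, which activates replication genes, was -0.31 and -0.16. Ccne2 was well above background in the female CB-NP pool alone. The lower bound of its fold there over the female control was 1.33. On the log2 scale this bound is smaller than the scanner error of the female Ccne2 difference, so no increase is established. Cdk2, the kinase partner of cyclins E and A, differed in opposite directions in the sexes. Its levels were 0.82 in unexposed and 0.36 in exposed males, and -0.18 in unexposed and 0.41 in exposed females. The difference was -0.45 in males and 0.59 in females, and the female control lay 1.00 below the male control, at least 2-fold as for 0.777% of genes between these pools. That gap was under 2-fold with normexp (-0.91), median centring (-0.88) and quantile normalization (-0.98). The CB-NP pools were close to each other, and the controls lay on either side of them.

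Markers of S and G2 phase and of proliferation in general were lower after exposure in males and mixed in size in females. Mki67, the Ki-67 antigen of all cycling cells, read 7.64, 7.46, 7.61 and 7.60, with differences of -0.18 and -0.02 and of -0.23 and -0.03 by its second probe. Under quantile normalization and the authors' scaling the female difference of Mki67 was slightly above 0. Top2a, the topoisomerase that untangles sister DNA, was at 3.78, 3.62, 4.04 and 3.58 (-0.16 and -0.46). Ccna2, cyclin A, differed by -0.20 and -0.14. In females these markers therefore ranged from no visible difference to nearly the lowest of the members.

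Mitotic genes were lower after exposure in 11 of 12 cases in males and in 12 of 12 in females. Of all genes, 54.8% lay below 0 in males and 56.7% in females. Cdk1, the mitotic kinase, read 2.21, 1.96, 2.31 and 2.04 (-0.25 and -0.27), and a dimmer detected probe gave -0.38 and -0.11. The cyclins of Cdk1 had the same direction, with Ccnb1 at -0.22 and -0.20 and Ccnb2 at -0.19 and -0.26. The other Ccnb1 probes gave -0.23 and -0.21, and -0.44 and -0.61. By the brightest probe of each gene Cdc20, the activator of the anaphase-promoting complex, was lowest in males (6.26 and 5.93, -0.33). It stood at 6.11 and 5.89 in females (-0.22). Bub1b, of the spindle checkpoint, differed by -0.29 in both sexes.

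The remaining measured mitotic genes lay below 0 in both sexes, except Aurka in males. Cenpa, the centromere histone, was -0.12 and -0.31, the lowest female difference of the mitotic class by the brightest probe of each gene. Birc5 (survivin) was -0.18 and -0.20, and its other probes gave -0.21 and -0.41, and -0.22 and -0.38. Kif11, a spindle motor, was -0.16 and -0.24, and Plk1, a Polo kinase, -0.07 and -0.22. Aurka, a spindle pole kinase, was 0.06 and -0.25, and Cenpe, a kinetochore motor, was -0.07 and -0.02. For these 2 the pools of the treatments overlapped, and Cenpe changed sign in both sexes under quantile normalization. Aurkb was below that level of detection on every array (not well above background), and its probe gives no value here. Both CB-NP pools lay below both controls for the 4 genes named before Aurka, as for 32.7% of genes measured on every array.

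Bub1, a spindle checkpoint kinase, offered a closer look at the reading error, because its probe was printed 10 times per array. Over unflagged spots it averaged 1.96 ± 0.05 (SD, n = 7 spots) in the male control and 1.83 ± 0.03 (SD, n = 7 spots) in the male CB-NP array. In the female arrays it averaged 2.01 ± 0.02 (SD, n = 8 spots) and 1.83 ± 0.03 (SD, n = 8 spots). The differences of -0.14 and -0.18 are within the scanner's stated error of 0.20, yet no female spot of one array overlapped the other (lowest control 1.98, highest CB-NP 1.86). In the male arrays the ranges just overlapped, with the lowest control spot at 1.876 and the highest CB-NP spot at 1.878. With flagged spots kept, the SD lay between 0.04 and 0.07 over 10 spots. Spots repeat the reading and not the animals, so this spread says nothing about other pools.

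The scatter plot of male and female differences places the members in the cloud of all genes. Most lie in its lower left, with Cdk2 apart.

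**Figure D4:**
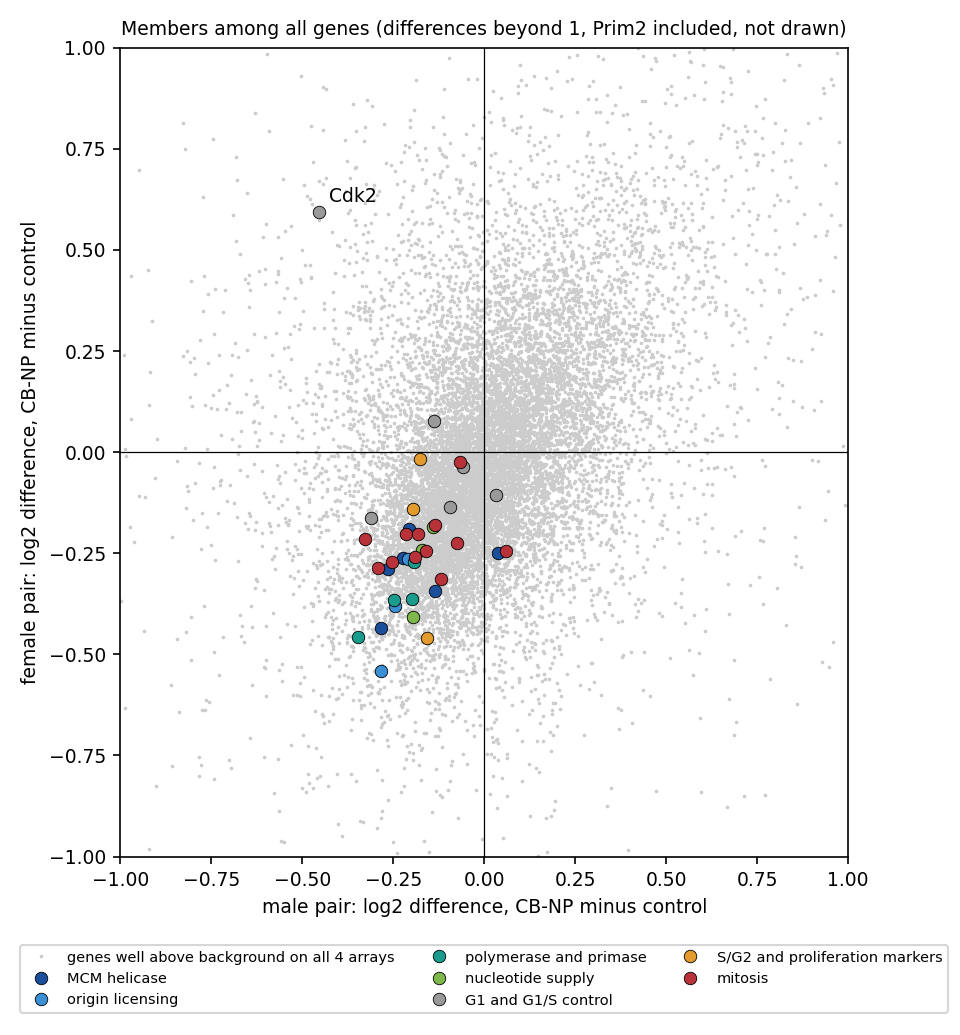
Log2 difference in the female pair against that in the male pair for genes well above background on all 4 arrays (grey) and for the members by role (coloured); differences beyond 1, including Prim2, are not drawn. Of the 38 members 33 lie below 0 on both axes, and Cdk2 is at -0.45 and 0.59.

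Other genes of the pathway, on lists with no member in them, gave the same picture with no gene at least 2-fold different in either sex. These lists too were chosen with earlier results of these data known. Of all genes, 54.8% lay below 0 in males and 56.7% in females. Both CB-NP pools were below both controls in 32.7% of genes measured on every array, and in 50% of genes between the quartiles of the members' signal. Among 50 further replication genes, 45 lay below 0 in males and 47 in females, with medians of -0.21 and -0.30, and in 43 both CB-NP pools were below both controls. The brightest were the DNA ligase gene Lig1 (-0.23 and -0.15) and Uhrf1 (-0.14 and -0.08), which helps copy DNA methylation. Among 62 measured further mitotic genes, 55 and 59 lay below 0, with medians of -0.16 and -0.27, and in 51 both CB-NP pools were below both controls. Here Incenp was -0.20 and -0.04, and Ube2c, a ubiquitin-conjugating enzyme of mitosis, was -0.20 and -0.21.

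Inhibitors and regulators differed less. Below 0 lay 54.8% of all genes in males and 56.7% in females, and 32.7% of genes measured on every array had both CB-NP pools below both controls. Such a separation was seen in 6 of 14 inhibitors, 7 of 9 E2F family genes and 7 of 13 kinase genes. Of 14 measured cell cycle inhibitors, 11 lay below 0 in males and 9 in females (medians -0.11 and -0.07), the latter near the share of all genes. Btg1, an antiproliferative gene, was higher, at 4.77 and 5.15 in the male pools and 4.78 and 5.10 in the female pools (0.38 and 0.32), while the kinase inhibitor gene Cdkn2d was -0.21 and -0.11. Of 9 genes of the E2F family and its partners, 8 and 9 lay below 0 (medians -0.11 and -0.15), with E2f2 at -0.26 and -0.01 and E2f8 at -0.20 and -0.08. Of 13 checkpoint and G1 kinase genes, 10 and 11 lay below 0 (medians -0.08 and -0.19), with Cdk4 at -0.19 and -0.20 and Pkmyt1, which restrains Cdk1, at -0.21 and -0.15.

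The arrays had similar shares of detected spots, while their brightness and the markers of several other cell types differed between the pools. The 75th percentile of processed signal was 335, 340, 392 and 317 in the 4 pools, so the female pair took the larger scaling. Well above background lay between 57.3% and 59.0% of 59305 non-control spots, no spot was saturated, and all 4 arrays lay on 1 slide, so array position and group cannot be told apart. Of 12 spleen stroma genes, 11 had a probe and all 11 were well above background on every array, with medians of 0.09 and 0.00 and summed log2 levels of 6.64, 6.73, 6.66 and 6.72. Erythroid precursor genes, a main source of dividing cells at this age, lay below 0 in 14 of 15 cases in males and 13 of 15 in females (medians -0.12 and -0.15), and their summed log2 level was 10.29, 10.13, 10.24 and 10.18 in the 4 pools. B cell genes lay above 0 in 15 of 15 and 14 of 15 cases (medians 0.68 and 0.68), with summed levels of 6.42, 7.12, 6.34 and 7.01. T cell genes had medians of 0.11 and 0.60, with summed levels of 5.06, 5.13, 5.04 and 5.53. Pancreatic acinar genes were far lower in the CB-NP pools, with summed levels of 4.90, 1.18, 4.56 and 1.21 and 11 of 21 not well above background in each exposed pool against 3 of 21 in each control. Eosinophil genes had medians of -1.55 and -1.75, with summed levels of 5.08, 3.54, 6.01 and 4.27. Neutrophil genes had medians of 0.10 and -0.37 (summed levels 10.46, 10.53, 10.54 and 10.30), megakaryocyte genes 0.29 and -0.03 (7.05, 7.32, 6.91 and 6.89), and B cell precursor genes 0.20 and -0.58 (3.45, 4.11, 3.60 and 3.79). The part of these cell type differences in those of the cell cycle genes, Prim2 included, was not tested.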

How the data were processed

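The 4 pools of spleen RNA gave 4 arrays. Scans of 1-colour Agilent arrays were quantified by the authors in Feature Extraction 10.10.1.1, per the file headers. The deposited processed signal is an intensity, background-subtracted and detrended within each array, with its propagated error. Flags of 0 or 1, other values in the deposited files, mark spots well above background. The authors' value table is an intensity equal to the processed signal times 1 constant per array (2.64 to 3.49), and its scaling target was not stated. Its column medians were 75.2, 76.1, 68.9 and 79.4 for the 4 pools in the order above.

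Here the 75th percentile of each array's non-control spots was subtracted after taking log2. Spots flagged as outliers were left out and repeated spots averaged. Of 55681 probes, 26762 matched a gene by RefSeq accession (GRCm38.p6, names only), and 28919 did not and were set apart. A gene with several probes took the one with the highest mean signal over the arrays. A gene entered a pair when well above background on both arrays. Where only 1 array was, the fold is a lower bound against the other array's lowest level well above background. With 1 pool a group there is no test within a sex, and a gene was counted at 2-fold or more. limma 3.58.1 (R 4.3.3) fitted treatment and sex over all genes detected on 2 or more arrays. The fit was checked on simulated data with differences larger than those of every member but Prim2, so smaller differences were not checked. The limma p-values set the shared difference of a gene against the disagreement between its male and female differences, moderated over all genes. No replicate pools enter them. Leaving out a pool leaves limma no residual degree of freedom. Tables and figures used Python 3.11.15, pandas 2.3.3, numpy 2.4.6 and matplotlib 3.10.9. The members and gene lists were chosen with earlier results of these data known. All members could be named. Of each further pathway list the up to 4 genes at least 2-fold different were to be named, otherwise the 2 brightest. Alternatives were normexp background correction (offset 50, on the deposited median spot and background intensity), median centring, quantile normalization, the authors' value table, all probes of a gene, other detection filters, wider classes, class means and an intensity trend.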

Additional observations from a re-analysis of the deposited data

Results flagged for a closer look

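Cdk2 drew attention because its differences in the 2 sexes pointed in opposite directions, each beyond its scanner error. It was lower after exposure in males (-0.45) and higher in females (0.59), so the female difference exceeded the male one by 1.05 on the log2 scale. Most of this lay in the controls, where the female pool (-0.18) was 1.00 below the male pool (0.82). The male and female CB-NP pools read 0.36 and 0.41. Cdk2 had a single probe. The difference between the sexes was not tested, since each sex has 1 pool a treatment. No group was large enough for a check on single outlying samples.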

How the results depend on the processing

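The median over the members stayed below 0 in both sexes under all 7 alternative settings, from -0.20 to -0.13 in males and from -0.36 to -0.15 in females, and without Prim2, a choice made after seeing the data, it was -0.19 and -0.25. Median centring lowered the female differences of all genes by a constant, so that their median was -0.16 there, while the members stood at -0.36, or -0.20 relative to all genes in both scalings. Both CB-NP pools lay below both controls in 27 (quantile normalization) to 33 (median centring) members. The number of members called by limma was 0 in the setting reported and 3 with normexp background correction, 1 with median centring and 3 with an intensity trend. The member medians changed by more than 1.5 times with quantile normalization (-0.13 and -0.15) and, in females, with the authors' scaling (-0.16), and between the controls with normexp (0.068) and median centring (0.16). The replication minus mitotic gap changed by as much in males with normexp (-0.072), quantile normalization (-0.015) and class means (-0.43), and in females with wider classes (-0.12) and class means (-0.20, or -0.076 without Prim2). It stayed below 0 in both sexes in every setting run. Between the controls the gap of 0.0073 became 0.039 with normexp, 0.024 with quantile normalization, -0.014 over all probes, 0.020 without a detection filter, 0.050 with wider classes and 0.011 with class means (0.00032 without Prim2). The authors' scaling and median centring each change an array by 1 constant. Relative to all genes the female member median was -0.21 with the authors' scaling and -0.20 in the setting reported. Between the controls the member median relative to all genes was 0.032 both in the setting reported and with median centring. The cause of the other changes was not tested. Of single members, Prim2 in males (-3.80 with normexp) and Cdk1 between the controls (-0.12 over all probes) moved by more than their scanner error. The limma model has sex as a term, so it already compares the pools within each sex, and the labels give no replicate numbers for a further block. The number of arrays limits the precision.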
